A study of Homo sapiens with 14 samples.

Results

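The genes described here are the snoRNA host genes of HCT116 cells, chosen by name: every symbol made of SNHG and digits only, together with GAS5, ZFAS1, DANCR, TAF1D, EIF4A2 and RACK1. The rule found 34 of 78686 gene identifiers, 28 of them named SNHG, and 32 of the 34 passed the filter on low counts in every fit. RNA had been sequenced from HCT116, a colon carcinoma line, in 14 libraries of total RNA made with a stranded, rRNA-depleting kit, in 7 groups of 2 libraries. The cells of all groups, vehicle groups included, carry osTIR1(F74G) and SAF-A fused to mAID and Halo. SAF-A is the RNA-binding nuclear matrix protein encoded by HNRNPU, and the auxin analog 5-Ph-IAA directs the tagged protein to degradation through osTIR1. The time-course set held vehicle (DMSO), 5-Ph-IAA for 3 h and 5-Ph-IAA for 12 h. The Nutlin set held 5-Ph-IAA with Nutlin, Nutlin alone, 5-Ph-IAA alone and vehicle (DMSO), with the treated libraries labelled 3 h. No time is labelled for vehicle in either set. Nutlin blocks MDM2, the ubiquitin ligase that keeps p53 low, and its dose is not stated in the labels. The labels also do not say whether the tagged line is 1 clone, or whether replicates came from separate cultures, so the p-values cover the spread between these libraries and no more.

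A snoRNA host gene carries small nucleolar RNAs in its introns. After splicing the intron is opened and trimmed, and the small RNA, bound by its core proteins, guides 2′-O-methylation (box C/D) or pseudouridylation (box H/ACA) of ribosomal and spliceosomal RNA. Many hosts make a spliced RNA that codes for no protein and is degraded during translation by nonsense-mediated decay, so its level depends on translation as well as on transcription. Others, such as RACK1 and EIF4A2, code for proteins of the translation machinery. Hosts often start transcription at a C followed by a run of pyrimidines, the terminal oligopyrimidine (TOP) type of start also used by ribosomal protein genes.

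Promoters are shown for the hosts whose levels the results turn on, and for SNHG1, SNHG5 and ZFAS1 as well-known hosts. Each line holds 50 bases before the annotated start and 50 bases from it on, 5′ to 3′ on the gene's strand, from RefSeq (GRCh38.p14). Capitals mark TATAA found between 40 and 15 bases before the start, and a run of C and T of at least 4 bases that begins with C at the start itself. The windows lie at chr11:93741446-93741545, minus strand for TAF1D, chr4:52712344-52712443, plus strand for DANCR, chr1:173868996-173869095, minus strand for GAS5, chr1:28581824-28581923, minus strand for SNHG12 and chr7:22854190-22854289, plus strand for SNHG26. Those of SNHG21, SNHG1, SNHG5 and ZFAS1 lie at chr15:82750514-82750613, plus strand, chr11:62855836-62855935, minus strand, chr6:85678684-85678783, minus strand and chr20:49278592-49278691, plus strand, in that order.
TAF1D: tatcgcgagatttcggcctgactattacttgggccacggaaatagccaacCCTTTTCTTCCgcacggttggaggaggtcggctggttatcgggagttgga
DANCR: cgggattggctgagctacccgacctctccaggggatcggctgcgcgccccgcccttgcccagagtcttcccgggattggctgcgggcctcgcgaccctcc
GAS5: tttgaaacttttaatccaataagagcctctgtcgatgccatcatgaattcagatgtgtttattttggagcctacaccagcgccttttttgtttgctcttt
SNHG12: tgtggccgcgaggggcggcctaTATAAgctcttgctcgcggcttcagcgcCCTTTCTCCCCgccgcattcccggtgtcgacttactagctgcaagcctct
SNHG26: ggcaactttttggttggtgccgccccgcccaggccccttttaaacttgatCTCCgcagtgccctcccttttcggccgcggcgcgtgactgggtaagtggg
SNHG21: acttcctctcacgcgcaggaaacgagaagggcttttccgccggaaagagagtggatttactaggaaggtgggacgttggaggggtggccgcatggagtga
SNHG1: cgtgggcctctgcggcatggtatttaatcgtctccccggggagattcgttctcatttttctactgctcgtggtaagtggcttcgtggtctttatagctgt
SNHG5: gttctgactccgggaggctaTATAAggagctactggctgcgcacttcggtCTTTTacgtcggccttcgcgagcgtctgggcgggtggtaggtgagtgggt
ZFAS1: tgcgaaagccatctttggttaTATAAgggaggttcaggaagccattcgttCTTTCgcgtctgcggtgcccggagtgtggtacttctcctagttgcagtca

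Promoters of 30 hosts were matched in RefSeq, and SNHG6, SNHG9, SNHG15 and SNHG25 were not used for this description. A start at C with a run of at least 4 pyrimidines stood in 12 of the 30 promoters (40%), against 1914 of all 35116 promoters (5.45%). TATAA on the gene's strand in the window above stood in 7 of the 30 (23.3%), against 3.91% of all promoters. Both features stood together in 6 of the 30 (20%), against 49 of all promoters (0.14%). The E-box CACGTG, searched on both strands over 300 bases, stood in 2 of the 30 (6.67%), against 7.26% of all promoters. Among the hosts printed, TAF1D, SNHG12, SNHG26, SNHG5 and ZFAS1 have the pyrimidine run, while the RefSeq starts used for DANCR, GAS5 and SNHG21 are not at a C. For GAS5 the whole window lies before the start of the gene in GENCODE 29, at chr1:173868882. The bases at that other start were not examined, so the GAS5 line does not show whether it has a run there. SNHG1 starts at C with a run of 3. A match describes these letters only and no binding was measured.

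The small RNAs themselves are shown for 3 hosts, from GENCODE 29 (GRCh38), because they bear on what the libraries could count. SCARNA13 lies in SNHG10 at chr14:95533355-95533629, minus strand. SNORA73A lies in SNHG3 at chr1:28507366-28507571, plus strand. SNORD27 lies in SNHG1 at chr11:62855012-62855083, minus strand. Capitals mark the ACA that stands 3 bases before the end of the first and second RNA, and the TGATGA (box C) and last CTGA (box D) of the third.
SCARNA13: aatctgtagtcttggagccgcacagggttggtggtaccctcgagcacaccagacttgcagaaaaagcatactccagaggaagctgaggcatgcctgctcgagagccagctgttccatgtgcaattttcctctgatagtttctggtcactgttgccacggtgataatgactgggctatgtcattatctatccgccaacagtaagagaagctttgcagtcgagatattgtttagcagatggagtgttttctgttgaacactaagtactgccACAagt
SNORA73A: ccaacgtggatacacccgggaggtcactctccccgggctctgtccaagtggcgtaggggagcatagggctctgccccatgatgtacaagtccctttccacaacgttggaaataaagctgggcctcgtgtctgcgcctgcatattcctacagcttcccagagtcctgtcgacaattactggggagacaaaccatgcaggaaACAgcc
SNORD27: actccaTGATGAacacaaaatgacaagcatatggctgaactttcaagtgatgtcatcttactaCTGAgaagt

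Libraries of the time-course set held 29.6 to 35.1 M expected counts, except for replicate 2 at 12 h with 3.54 M, and those of the Nutlin set held 12.6 to 17.2 M (M, 1000000). Replicates differed beyond counting noise in every group, and the chi-square over its degrees of freedom across genes was 3.28 to 22.2, highest between the Nutlin libraries. At least 1 TPM (transcripts per 1000000) was reached by 6 of 7 colon epithelial markers and by 1 of 8 markers of blood, stromal, endothelial and liver cells. The summed level was 3503 to 5506 TPM for the epithelial list and 0.44 to 2.05 TPM for the other list. COL1A1, at up to 1.91 TPM, was the marker of other cells above that level. HNRNPU RNA does not check the depletion, since the drug acts on the protein.

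Several of these hosts were abundant in HCT116 cells, as the plot of levels by library shows. Averaged over all libraries, 12 hosts reached at least 100 TPM, 18 lay between 1 and 100 TPM and 4 lay under 1 TPM. TPM is a level per length, so it can be compared between genes. RACK1, which codes for a scaffold protein on the small ribosomal subunit, stood highest at 1200 to 1705 TPM. It was followed by SNHG29 with 371 to 593 TPM, GAS5 with 329 to 490 TPM, ZFAS1 with 292 to 390 TPM, EIF4A2 with 258 to 366 TPM and SNHG8 with 196 to 316 TPM. GAS5 (growth arrest-specific 5) and ZFAS1 are noncoding hosts of box C/D snoRNAs, and EIF4A2 codes for an RNA helicase of translation initiation. The ranges of neighbours in this order overlapped from SNHG29 down to SNHG8, while that of RACK1 lay above all others. Of the 34 hosts, 30 have a noncoding gene type in GENCODE 29. EIF4A2, TAF1D, RACK1 and SNHG32 are typed protein-coding.

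**Figure D1:**
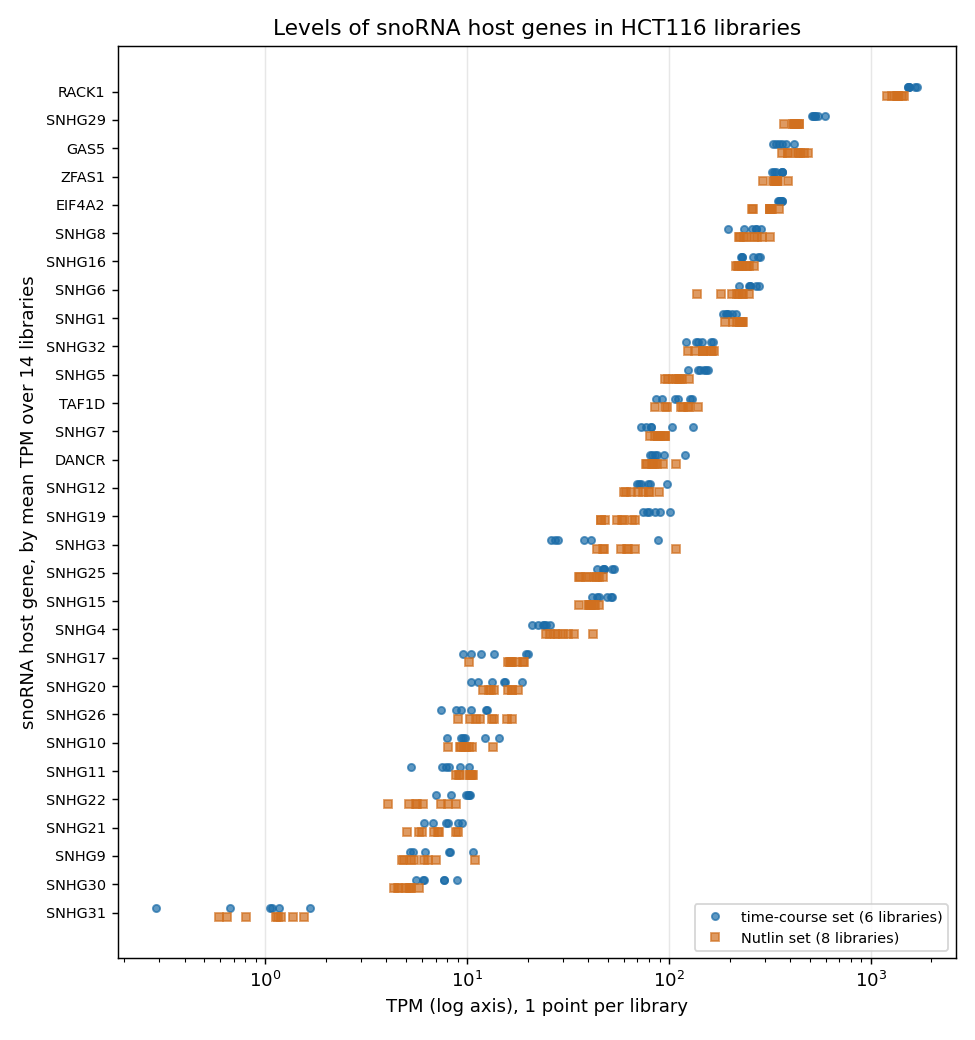
TPM of each snoRNA host gene in each library on a log axis, for the 30 hosts with a mean of at least 1 TPM (circles, 6 time-course libraries; squares, 8 Nutlin-set libraries). RACK1 lies between 1200 and 1705 TPM, apart from the rest, and SNHG3 spreads from 26.1 to 109.2 TPM.

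The tests used counts per 1000000 (CPM) scaled by TMM within a set, which are not levels per length and are not compared between sets. SNHG29, a noncoding host on chromosome 17, had 738 and 750.0 CPM in vehicle, 711 and 695 CPM at 3 h and 695 and 669.6 CPM at 12 h. In the Nutlin set it had 548 and 525 CPM with both drugs, 544 and 632 CPM with Nutlin, 558 and 529 CPM with 5-Ph-IAA and 543 and 523 CPM in vehicle. The treated time-course libraries lay below both vehicle libraries, but SNHG29 passed in no comparison. EIF4A2 had 864 and 861 CPM in vehicle, 909 and 889 CPM at 3 h and 822 and 809.8 CPM at 12 h. In the Nutlin set it had 773 and 761 CPM with both drugs, 611 and 843 CPM with Nutlin, 770.0 and 739.5 CPM with 5-Ph-IAA and 697 and 752 CPM in vehicle. Its 2 Nutlin libraries enclosed all others of the set, and it passed in no comparison either. ZFAS1 had 188 and 186 CPM in vehicle, 183 and 171 CPM at 3 h and 194 and 185 CPM at 12 h, and 207 and 184 CPM with both drugs, 203 and 257 CPM with Nutlin, 206 and 209.7 CPM with 5-Ph-IAA and 207 and 204 CPM in vehicle of the Nutlin set. Replicate 2 of Nutlin was the highest ZFAS1 library of its set, above its partner by more than any other pair differed.

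At 12 h of 5-Ph-IAA, TAF1D fell most clearly among the hosts, GAS5, SNHG21 and SNHG6 fell, and SNHG26 and DANCR rose. In edgeR with Benjamini-Hochberg adjustment, 6 of 32 hosts passed against vehicle (18.8%), where 11.4% of all tested genes passed. The 2 raised hosts (3.39% of all genes rose) and the 4 lowered ones (7.97% of all genes fell) are shown in the plot of single libraries. The median log2 fold change was -0.05 over the 32 hosts and -0.003 over all genes, and the median size of the change was 0.18 in hosts and 0.33 in all genes. The libraries of the groups did not overlap for 8 hosts that lay higher at 12 h and 12 that lay lower, where 22.9% of all genes lay higher and 27.9% lower. With 1 vehicle or 12 h library left out, the host median was -0.06 to -0.01. Of the 6 hosts, only TAF1D kept its call each time. With limma on the TPM scale no host passed, where 2 of all genes did. In bulk RNA, less RNA per cell and fewer cells that express a gene cannot be told apart.

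TAF1D, which codes for a subunit of the SL1 factor that brings RNA polymerase I to ribosomal DNA and carries snoRNAs in its introns, lies at chr11:93729948-93784391, minus strand. It had 239 and 242 CPM in vehicle, 211 and 204 CPM at 3 h and 167 and 151 CPM at 12 h. The libraries of the 3 groups did not overlap, with 3 h below vehicle and 12 h below 3 h. The log2 fold change at 12 h against vehicle was -0.59 ± 0.08 (SE, adjusted p = 0.000779, edgeR). It remained between -0.66 and -0.53 and past the threshold with any 1 of the vehicle and 12 h libraries left out. On the TPM scale with limma it was -0.53 with an adjusted p of 0.0634, where 2 of all genes passed. Against 3 h, TAF1D at 12 h was also lower (-0.37 ± 0.08, adjusted p = 0.0113, edgeR), a call that ended without replicate 1 at 3 h (-0.37, adjusted p = 0.061).

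SNHG26, a noncoding host of SNORD93 at chr7:22854178-22861579, plus strand, had 16.2 and 16.6 CPM in vehicle, 18.8 and 20.3 CPM at 3 h and 28.9 and 21.4 CPM at 12 h. Its libraries did not overlap between any of the 3 groups, and the 12 h replicates lay far apart. It rose at 12 h by 0.67 ± 0.16 log2 against vehicle (adjusted p = 0.0178, edgeR), and by 0.39 with an adjusted p of 0.352 without replicate 1 at 12 h, the higher of that pair. DANCR, a noncoding host of SNORA26 at chr4:52712404-52720351, plus strand, that was named for restraining differentiation of progenitor cells, had 94.7 and 97.4 CPM in vehicle, 97.7 and 93.3 CPM at 3 h and 118 and 129 CPM at 12 h. Vehicle and 3 h overlapped and both 12 h libraries lay above them. DANCR rose at 12 h by 0.35 ± 0.09 log2 against vehicle (adjusted p = 0.0198, edgeR) and by 0.36 ± 0.09 against 3 h (adjusted p = 0.0229, edgeR). Without the shallow replicate 2 at 12 h the first change was 0.29 with an adjusted p of 0.0796. The second lost its call without either replicate at 12 h or at 3 h, at 0.29 to 0.43 (adjusted p = 0.0559 to 0.185).

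GAS5, at chr1:173863900-173868882, minus strand, had 316 and 278 CPM in vehicle, 267 and 282 CPM at 3 h and 248 and 234 CPM at 12 h. The 12 h libraries lay below all others of the set, and the vehicle libraries stood further apart than those at either time. It fell, with a log2 fold change of -0.29 ± 0.08 (adjusted p = 0.0312, edgeR), and the change was -0.18 (adjusted p = 0.193) without vehicle replicate 1, -0.33 (adjusted p = 0.102) without 12 h replicate 1 and -0.26 (adjusted p = 0.104) without 12 h replicate 2. SNHG21 is a noncoding host of SCARNA15 at chr15:82750564-82757206, plus strand. It had 17.7 and 16.8 CPM in vehicle, 13.5 and 15.5 CPM at 3 h and 10.99 and 12.1 CPM at 12 h. These 3 groups did not overlap. SNHG21 fell at 12 h, with a log2 fold change of -0.61 ± 0.17 (adjusted p = 0.0392, edgeR). Without vehicle replicate 1, vehicle replicate 2 or 12 h replicate 1, the change was -0.55, -0.64 and -0.51, with adjusted p of 0.117, 0.0732 and 0.307. SNHG6, the noncoding host of SNORD87, had 108 and 112 CPM in vehicle, 105 and 110.0 CPM at 3 h and 87.6 and 92.6 CPM at 12 h. Both 12 h libraries lay below the other 4, and the change was -0.30 ± 0.09 log2 (adjusted p = 0.0426, edgeR). Leaving out either library of either group ended this call, with changes of -0.33 to -0.24 and adjusted p of 0.054 to 0.307. With the vehicle and 12 h libraries fitted alone the adjusted p was 0.0697 for GAS5, 0.0764 for SNHG21 and 0.0933 for SNHG6, in DESeq2 it was 0.0693 for SNHG21, and with RLE size factors 0.0591 for SNHG6.

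**Figure D2:**
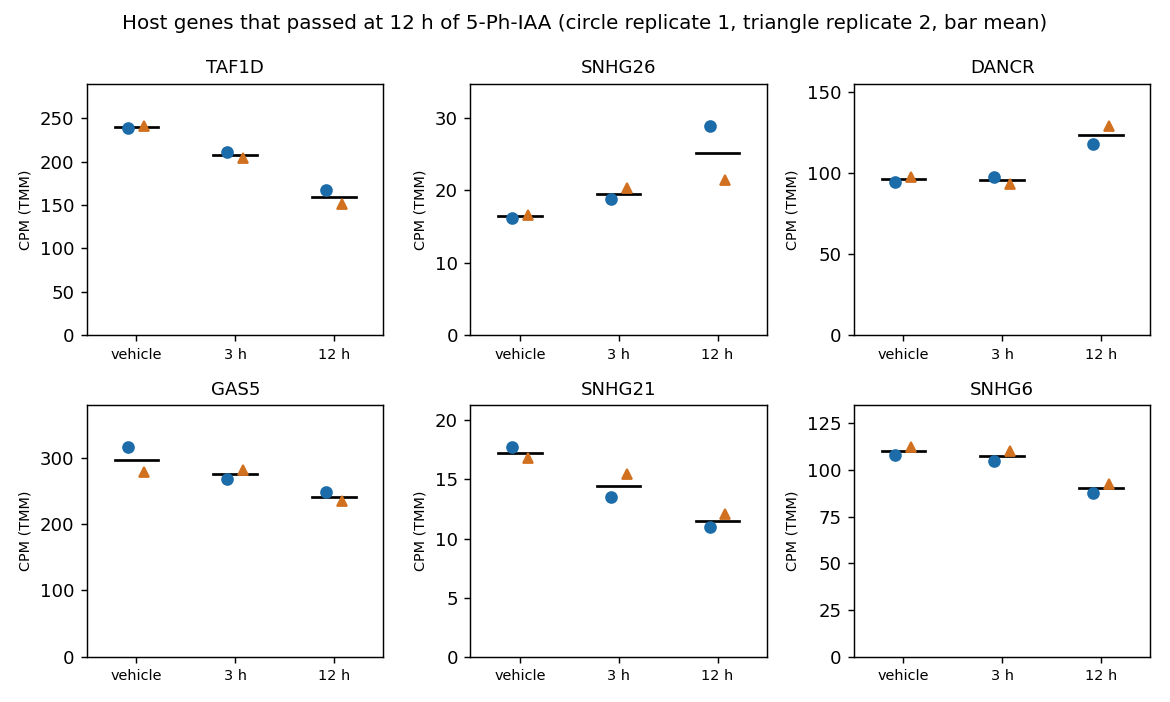
TMM-scaled CPM in single libraries of the 6 hosts that passed at 12 h of 5-Ph-IAA against vehicle. Groups are vehicle, 3 h and 12 h. Circles mark replicate 1, triangles replicate 2 and bars the mean of 2. TAF1D steps down from vehicle to 3 h and on to 12 h, and DANCR lies highest at 12 h.

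At 3 h of 5-Ph-IAA in the time-course set, none of the 32 hosts passed in edgeR, where 13 of all genes (0.0682%) did, and 1 host had an unadjusted p under 0.05. That host was TAF1D, at -0.21 ± 0.07 log2 (adjusted p = 0.711, edgeR). DESeq2 called 54 genes in this comparison and no host. Groups did not overlap for 7 hosts that lay higher at 3 h and 7 that lay lower, where 18.7% of all genes lay higher and 20.1% lower. SNHG15, a noncoding host of SNORA9, had 74.6 and 70.3 CPM in vehicle, 84.8 and 79.5 CPM at 3 h and 78.5 and 70.1 CPM at 12 h, and its change at 3 h was 0.18 ± 0.09 log2 (adjusted p = 0.786, edgeR). Both 3 h libraries of SNHG15 lay above the rest of the set. The change of 12 h against 3 h passed for TAF1D and DANCR, 2 of 32 hosts (6.25%), against 8.14% of all genes. In that comparison 8 hosts lay higher and 11 lower without overlap, against 23.3% and 28.3% of all genes. SNHG17, a noncoding host of SNORA71 RNAs, had 29.6 and 20.5 CPM in vehicle, 25.5 and 24.2 CPM at 3 h and 33.5 and 40.5 CPM at 12 h. Its 12 h libraries were the highest, at 0.54 ± 0.17 log2 against 3 h (adjusted p = 0.0806, edgeR; 0.0367 in DESeq2).

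**Figure D3:**
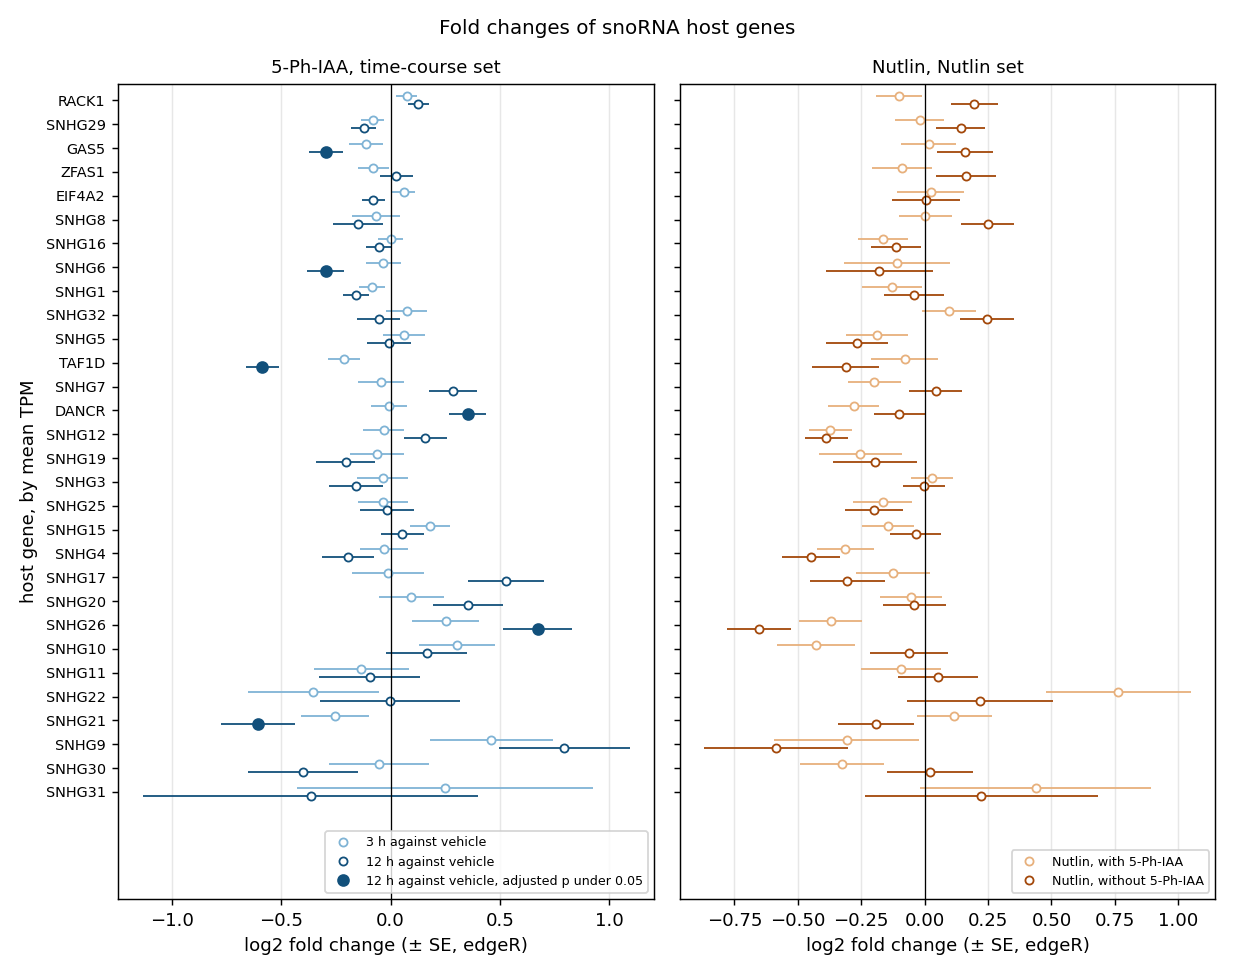
Fold changes (log2, edgeR, bar = SE) of the 30 hosts with a mean of at least 1 TPM: left, 5-Ph-IAA at 3 h and 12 h against vehicle; right, Nutlin against no Nutlin, with and without 5-Ph-IAA. Filled points passed at 12 h; TAF1D at 12 h lies at -0.59, and SNHG12 lies at -0.37 and -0.39 on the right.

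With Nutlin, SNHG12 and SNHG26 fell in the test of the average over both arms of the Nutlin set, that is, with and without 5-Ph-IAA. In that test 2 of 32 hosts passed, both lowered (6.25%), where 1.44% of all genes passed, 0.956% raised and 0.487% lowered. All 4 libraries with Nutlin lay below all 4 without it for 6 hosts and above them for none, where 4.7% of all genes lay lower and 4.67% higher. With 1 library of the set left out, the average was -0.40 to -0.36 for SNHG12 and -0.57 to -0.45 for SNHG26. Neither host kept its call in every such fit. The host median was then -0.12 to -0.05. Which other hosts were called depended on the library left out. Far more of all genes passed without 1 of the Nutlin-alone libraries than the 1.44% with all libraries. Limma on the TPM scale called no host, where 70 of all genes rose and 9 fell. The median log2 fold change of the average was -0.11 over the hosts and -0.002 over all genes. SNHG12 and SNHG26 are 2 of the 12 hosts with the pyrimidine run at the start. The others with it, among them RACK1, EIF4A2, ZFAS1 and SNHG32, did not pass in the average with all libraries. A link between the run and the change was not tested.

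SNHG12, a noncoding host of several box H/ACA snoRNAs and of SNORD99 at chr1:28578538-28583132, minus strand, had 93.4 and 92.4 CPM with 5-Ph-IAA and Nutlin and 91.5 and 95.2 CPM with Nutlin. It had 122 and 118 CPM with 5-Ph-IAA and 119.8 and 125 CPM in vehicle. The 4 libraries with Nutlin lay close together and well below the 4 without it. SNHG12 fell on average, with a log2 fold change of -0.38 ± 0.06 (adjusted p = 0.0128, edgeR). The change was -0.37 ± 0.08 (adjusted p = 0.172, edgeR) for both drugs against 5-Ph-IAA, and -0.39 ± 0.08 (adjusted p = 0.112, edgeR; 0.0479 in DESeq2) for Nutlin against vehicle. The average kept its size, -0.40 to -0.36, when any library of the vehicle, 5-Ph-IAA or combined group was left out, but its adjusted p was then 0.0736 to 0.12.

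SNHG26 had 18.6 and 18.7 CPM with 5-Ph-IAA and Nutlin and 16.8 and 17.9 CPM with Nutlin. It had 22.04 and 26.3 CPM with 5-Ph-IAA and 27.6 and 27.1 CPM in vehicle. Libraries with Nutlin again lay below all without it. SNHG26 fell on average, with a log2 fold change of -0.51 ± 0.09 (adjusted p = 0.0205, edgeR). For Nutlin against vehicle the change was -0.65 ± 0.13 (adjusted p = 0.0665, edgeR; 0.0497 in DESeq2), and for both drugs against 5-Ph-IAA it was -0.37 ± 0.13 (adjusted p = 0.468, edgeR). The average lost its call without vehicle replicate 1 or 2, 5-Ph-IAA replicate 2, or either combined replicate, at -0.52 to -0.45 (adjusted p = 0.115 to 0.147).

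SNHG4, a noncoding host of SNORA74A, had 48.7 and 51.2 CPM with 5-Ph-IAA and Nutlin and 44.4 and 45.5 CPM with Nutlin. It had 65.1 and 59.1 CPM with 5-Ph-IAA and 55.7 and 67.1 CPM in vehicle, so the libraries with Nutlin were lower here too. Its average change of -0.38 ± 0.08 log2 did not pass (adjusted p = 0.0508, edgeR; 0.0166 in DESeq2). For Nutlin against vehicle it was -0.45 ± 0.11 (adjusted p = 0.176, edgeR). SNHG4 overlaps MATR3 on the same strand, so part of its counts may belong to that gene. DANCR had 87.3 and 89.5 CPM with both drugs, 86.4 and 95.7 CPM with Nutlin, 107 and 107 CPM with 5-Ph-IAA and 104 and 91.04 CPM in vehicle. It was lower with both drugs than with 5-Ph-IAA alone without overlap, at -0.28 ± 0.10 log2 (adjusted p = 0.491, edgeR), while the Nutlin and vehicle libraries overlapped.

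**Figure D4:**
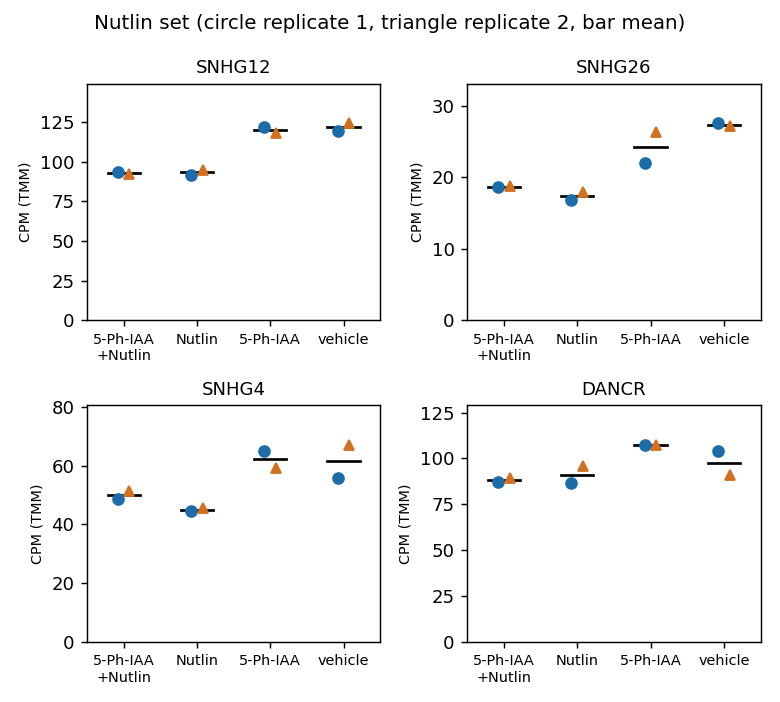
TMM-scaled CPM in single libraries of SNHG12, SNHG26, SNHG4 and DANCR in the Nutlin set (groups from left: 5-Ph-IAA with Nutlin, Nutlin, 5-Ph-IAA, vehicle; circle, replicate 1; triangle, replicate 2; bar, mean of 2). For SNHG12 the 4 libraries with Nutlin lie at 91.5 to 95.2 CPM and the 4 without it at 118 to 125 CPM.

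Each arm tested alone gave no called host in edgeR with all 8 libraries in the fit. For Nutlin against vehicle, 0 of 32 passed in edgeR against 0.464% of all genes, and 6 had an unadjusted p under 0.05. DESeq2 called SNHG12 and SNHG26 there, where 113 of 17251 genes rose and 45 fell. Without overlap, 4 hosts lay higher with Nutlin and 10 lower, where 18.3% of all genes lay higher and 17.8% lower. For 5-Ph-IAA with Nutlin against 5-Ph-IAA, 0 passed in edgeR against 0.388% of all genes, 6 had an unadjusted p under 0.05, and DESeq2 called none. With these 2 groups fitted alone in edgeR, 3 hosts passed, SNHG12 (-0.37, adjusted p = 0.00238), DANCR (-0.28, adjusted p = 0.0205) and SNHG4. In that fit 333 of 16434 genes rose and 289 fell. By library, 2 hosts lay higher with both drugs and 17 lower without overlap, where 23.1% of all genes lay higher and 23.3% lower, and the median log2 fold change was -0.12 over the hosts. Which hosts were called against vehicle depended on the Nutlin library left out. In both of those fits far more of all genes passed than the 0.464% with all 8 libraries. SNHG26, SNHG12 and SNHG4 had the smallest p. With 1 Nutlin or vehicle library left out, their changes were -0.70 to -0.61, -0.42 to -0.35 and -0.58 to -0.30, in that order. The host median was then -0.163 to 0.012. A lone library was assumed in these fits to vary like the other groups.

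GAS5 shows how the Nutlin replicates differed, with 319 and 309 CPM with both drugs, 319.8 and 389.5 CPM with Nutlin, 313 and 308 CPM with 5-Ph-IAA and 299.7 and 336 CPM in vehicle. Nutlin replicate 1 lay between the vehicle libraries and replicate 2 above every other. TAF1D had 205 and 194 CPM with both drugs, 150.4 and 194 CPM with Nutlin, 212 and 209 CPM with 5-Ph-IAA and 193 and 235 CPM in vehicle. Here Nutlin replicate 1 was the lowest library and replicate 2 overlapped the rest. SNHG6 had 113 and 95.8 CPM with both drugs, 69.96 and 123 CPM with Nutlin, 111 and 114 CPM with 5-Ph-IAA and 102 and 117 CPM in vehicle, so its Nutlin replicates were the lowest and the highest of the set. SNHG8, a noncoding host of SNORA24, had 102 and 97.3 CPM with both drugs, 103 and 122 CPM with Nutlin, 104 and 95.2 CPM with 5-Ph-IAA and 94.9 and 94.6 CPM in vehicle. Its time-course libraries had 99.6 and 104 CPM in vehicle, 106 and 88.3 CPM at 3 h and 99.6 and 80.3 CPM at 12 h, which overlapped.

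In the Nutlin set, 5-Ph-IAA for 3 h alone against vehicle called 0 of 32 hosts and 0 of all genes (0%) in edgeR. No host had an unadjusted p under 0.05 there, 245 genes did, and DESeq2 called 1 gene and no host. Without overlap, 5 hosts lay higher with 5-Ph-IAA and 3 lower, against 14.7% and 14.8% of all genes. DANCR, with one of the smallest p, was at 0.14 ± 0.10 log2 (adjusted p = 1, edgeR), its vehicle libraries lying below both 5-Ph-IAA libraries. With Nutlin present, 5-Ph-IAA against Nutlin alone also called 0 hosts and 0 genes in edgeR, with 2 hosts and 1404 genes at an unadjusted p under 0.05 and 24 genes called by DESeq2. In that comparison 7 hosts lay higher and 7 lower without overlap, against 17.3% and 18.2% of all genes. RACK1 had the smallest p among hosts, with 1619 and 1579 CPM with both drugs, 1790.3 and 2038 CPM with Nutlin, 1749.7 and 1679.7 CPM with 5-Ph-IAA and 1721 and 1623 CPM in vehicle. Both Nutlin libraries lay above all others. The change with both drugs against Nutlin was -0.26 ± 0.09 log2 (adjusted p = 0.604, edgeR), and -0.35 without Nutlin replicate 1. Many of all genes passed in that fit, whereas 0 did with all libraries, so its calls are not listed by host. With 1 library of the 2 groups left out, the host median was -0.150 to 0.055. RACK1 in the time course had 1900.2 and 1846 CPM in vehicle, 1995 and 1948 CPM at 3 h and 2109 and 1982 CPM at 12 h, each time above vehicle, and it did not pass.

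Whether the Nutlin response differed in the presence of 5-Ph-IAA was the question of the interaction term, in which 0 hosts and 0 genes passed in edgeR, 1 host and 623 genes had an unadjusted p under 0.05, and DESeq2 called 1 gene. The host was RACK1, at -0.30 ± 0.13 log2 (adjusted p = 0.989, edgeR). Without Nutlin replicate 1 the interaction was -0.39 for RACK1. Many of all genes passed in that fit, whereas 0 did with all libraries. SNHG10, a noncoding host of SCARNA13, had 11.6 and 10.8 CPM with both drugs, 14.04 and 13.5 CPM with Nutlin, 16.8 and 13.3 CPM with 5-Ph-IAA and 14.9 and 13.8 CPM in vehicle. Its libraries with both drugs were the lowest, and its interaction was -0.37 ± 0.22 log2 (adjusted p = 0.989, edgeR). For SNHG8 the interaction was -0.24 ± 0.15 (adjusted p = 0.989, edgeR), a direction that turned to 0.0075 with limma on the TPM scale.

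The 3 h effect of 5-Ph-IAA could be set against that of the other set. No host passed for the effect common to both sets (0% of all genes in edgeR; 872 genes and no host had an unadjusted p under 0.05; DESeq2 called 5 genes). No host passed for the difference between sets either, where 12 of all genes (0.0636%) did. SNHG26 had the smallest p of the difference, at 0.45 ± 0.16 log2 (adjusted p = 0.729, edgeR). Its 3 h libraries lay above vehicle in the time course, whereas its 5-Ph-IAA libraries lay below vehicle in the Nutlin set, at -0.18 ± 0.12 (adjusted p = 1, edgeR). SNHG15 had a difference between the sets of 0.25 ± 0.11 log2 (adjusted p = 0.78, edgeR). Its libraries had 65.4 and 57.2 CPM with both drugs, 66.4 and 71.1 CPM with Nutlin, 70.5 and 64.8 CPM with 5-Ph-IAA and 70.1 and 71.03 CPM in vehicle of the Nutlin set. SNHG10 had a common effect of 0.20 ± 0.11 log2 (adjusted p = 0.943, edgeR), with 12.2 and 12.7 CPM in vehicle, 13.5 and 17.2 CPM at 3 h and 14.8 and 12.3 CPM at 12 h of the time course. TAF1D had a common effect of -0.11 ± 0.06 log2 (adjusted p = 0.943, edgeR), with the time-course libraries lower at 3 h and the Nutlin-set libraries inside the range of vehicle.

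SNHG3 differed between libraries far more in TPM than in CPM. It hosts SNORA73A and SNORA73B, the U17 snoRNAs of early ribosomal RNA processing, and overlaps RCC1 on the same strand. Its CPM were 101 and 85.1 in vehicle, 94.1 and 87.3 at 3 h and 91.8 and 70.4 at 12 h. In the Nutlin set they were 161 and 153 with both drugs, 150.1 and 152 with Nutlin, 152 and 156 with 5-Ph-IAA and 150.3 and 153 in vehicle, all within 1.07-fold. On the TPM scale the same libraries held 37.99 and 28.2 in vehicle, 26.1 and 41.4 at 3 h and 27.3 and 88.1 at 12 h. The Nutlin set held 63.05 and 57.8 TPM with both drugs, 44.4 and 47.3 TPM with Nutlin, 62.1 and 47.9 TPM with 5-Ph-IAA and 109 and 67.9 TPM in vehicle, a 2.46-fold range. The effective length that RSEM gave the gene, its isoform-weighted length, was short where TPM was high, with 1684 and 2034 bases in vehicle, 2265 and 1377 bases at 3 h and 2281 and 558 bases at 12 h. It was 1736 and 1941 bases with both drugs, 2324 and 1962 bases with Nutlin, 1632 and 2277 bases with 5-Ph-IAA and 832 and 1628 bases in vehicle of the Nutlin set. In the time course the CPM range was 1.43-fold and the TPM range 3.37-fold, and SNHG3 passed in no comparison.

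**Figure D5:**
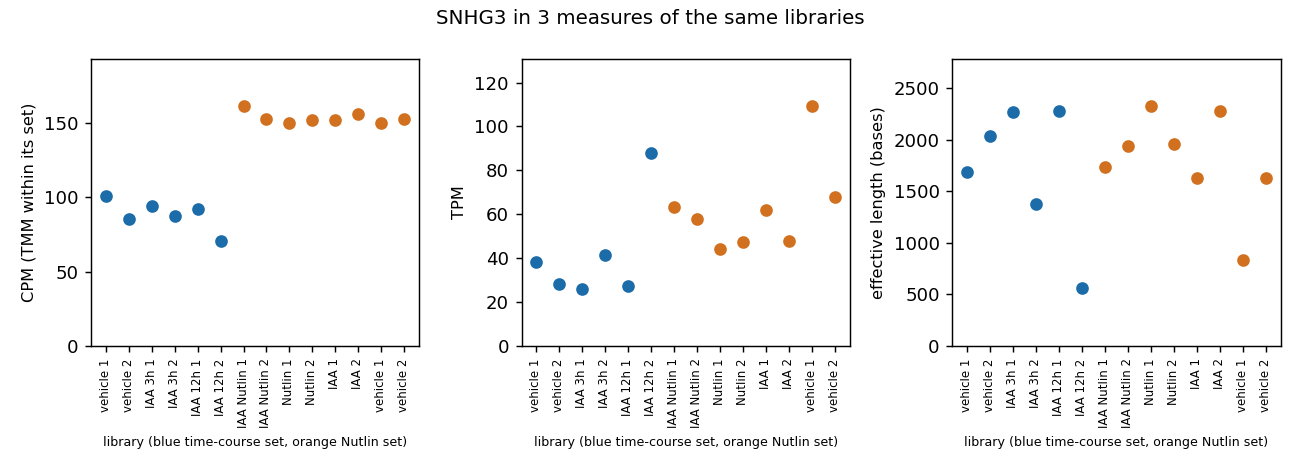
SNHG3 in each library as TMM-scaled CPM, TPM and effective length in bases (blue, time-course set; orange, Nutlin set; the 2 sets were scaled separately). In the Nutlin set the CPM lie within 1.07-fold, while TPM span 44.4 to 109.2 and the effective length 832 to 2324 bases.

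The libraries held many counts of the hosts and few of the small RNAs inside them. GENCODE 29 places 158 snoRNA or scaRNA genes on the same strand within 32 of the hosts, 84 of them in SNHG14. GAS5 and SNHG27 held none by this match, so the 158 leave out the box C/D snoRNAs of GAS5. Of the 158, 149 had an effective length of 0 in every library, which RSEM gives to transcripts shorter than nearly all fragments. The 24 with any count were 125 to 275 bases long (median 134), and the 134 with none were 59 to 144 bases long (median 82). Only SCARNA13, SNORA73A and SNORA73B reached 100 counts in total. SCARNA13, a Cajal body RNA of 275 bases, had 43.4 and 37.2 CPM in vehicle, 48.2 and 47.6 CPM at 3 h and 50.4 and 40.8 CPM at 12 h. In the Nutlin set it had 38.4 and 32.7 CPM with both drugs, 40.01 and 52.2 CPM with Nutlin, 37.2 and 40.3 CPM with 5-Ph-IAA and 36.8 and 32.97 CPM in vehicle. Its counts exceeded those of its host SNHG10 in every library. Its 3 h libraries lay above vehicle and its 12 h libraries overlapped vehicle in the time course. Its Nutlin and 5-Ph-IAA libraries each lay above vehicle in the other set, and those with both drugs lay below Nutlin alone. None of the small RNAs tested (7 of the time course and 3 of the Nutlin set) passed in a comparison. SNORD27, of 72 bases, had no count.

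The lowest hosts could say little. SNHG27 was at 0 in every library, and SNHG18 had 11 counts, all in replicate 1 at 12 h, so neither was tested. SNHG28 had 38.8 and 29 expected counts in vehicle, 27.4 and 0 at 3 h and 0 and 0 at 12 h. Taken over the group, a floor of 3 counts at 12 h makes the 12 h level at least 11.3-fold lower than vehicle, and SNHG28 did not pass (adjusted p = 0.1, edgeR). The host median at 12 h was -0.05 also with SNHG28 at that bound. It overlaps 2 genes on its strand, and replicate 2 at 3 h was already at 0. SNHG14, the long imprinted host of the SNORD115 and SNORD116 clusters and the antisense partner of UBE3A, had 0.867 and 1.12 CPM in vehicle, 1.82 and 2.62 CPM at 3 h and 1.37 and 2.19 CPM at 12 h. All treated libraries were above vehicle, with 40.5 and 8 expected counts at 12 h, and the change at 3 h was 1.15 ± 0.53 log2 (adjusted p = 0.766, edgeR). It had 3.25 and 3.15 CPM with both drugs, 2.18 and 1.71 CPM with Nutlin, 3.25 and 2.36 CPM with 5-Ph-IAA and 2.22 and 3.07 CPM in vehicle of the Nutlin set. There the change with both drugs against Nutlin was 0.72 ± 0.31 (adjusted p = 0.611, edgeR) and the common 3 h effect 0.64 ± 0.30 (adjusted p = 0.943, edgeR).

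The other hosts passed in no comparison. By TPM over all libraries, SNHG16 lay at 214.66 to 282 TPM, SNHG1 at 185 to 234 TPM, SNHG32 at 122 to 167 TPM and SNHG5 at 95.7 to 156 TPM. SNHG7 lay at 73.2 to 132 TPM, SNHG19 at 45.9 to 102 TPM and SNHG25 at 35.8 to 53.5 TPM. SNHG20 lay at 10.4 to 18.7 TPM, SNHG11 at 5.28 to 10.8 TPM and SNHG22 at 4.08 to 10.4 TPM. Of these, SNHG1 had 451 and 445 CPM in vehicle, 423 and 422 CPM at 3 h and 400.0 and 404 CPM at 12 h. Its 3 h libraries lay below vehicle and its 12 h libraries below those at 3 h, without overlap. SNHG16, a noncoding host of box C/D snoRNAs, had 515 and 527 CPM in vehicle, 528 and 515 CPM at 3 h and 499.8 and 504 CPM at 12 h. Vehicle and 3 h overlapped, and both 12 h libraries lay below them. SNHG5 is also a host of box C/D snoRNAs. It had 118 and 104 CPM in vehicle, 121 and 112 CPM at 3 h and 104 and 121 CPM at 12 h. Its 3 groups overlapped. SNHG7, a host of SNORA17A and SNORA17B, had 87.9 and 71.5 CPM in vehicle, 78.5 and 75.95 CPM at 3 h and 92.96 and 103 CPM at 12 h, with both 12 h libraries highest.

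Hosts of low level had wide spreads. SNHG9, next to RPS2, had 3.38 and 3.66 CPM in vehicle, 4.48 and 5.21 CPM at 3 h and 5.64 and 6.85 CPM at 12 h, and 3.19 and 3.75 CPM with both drugs, 3.20 and 3.84 CPM with Nutlin, 4.54 and 4.04 CPM with 5-Ph-IAA and 3.98 and 6.67 CPM in vehicle of the Nutlin set. Its difference between the sets at 3 h was 0.78 ± 0.38 log2 (adjusted p = 0.801, edgeR). SNHG30, a host of SNORD7, had 7.61 and 6.65 CPM with both drugs, 7.64 and 7.73 CPM with Nutlin, 8.53 and 9.37 CPM with 5-Ph-IAA and 7.37 and 7.79 CPM in vehicle, with 5-Ph-IAA alone highest at 0.24 ± 0.17 log2 over vehicle (adjusted p = 1, edgeR). SNHG21 in that set had 18.6 and 16.6 CPM with both drugs, 13.3 and 15.2 CPM with Nutlin, 17.8 and 14.6 CPM with 5-Ph-IAA and 16.6 and 16.1 CPM in vehicle, at 0.30 ± 0.15 log2 with both drugs against Nutlin (adjusted p = 0.635, edgeR).

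A protein-coding gene starts on the opposite strand within 2000 bases of the start of 10 hosts, and 19 of the 34 overlap a protein-coding gene. Whether counting used strand is not given in the sources used here, so for the overlapping pairs reads of both genes may not be told apart. SNHG1 starts 188 bases from SLC3A2, the heavy chain of an amino acid exchanger. SNHG1 had 454 and 443 CPM with both drugs, 416 and 542 CPM with Nutlin, 505 and 477 CPM with 5-Ph-IAA and 488 and 497 CPM in vehicle. SLC3A2 had 399 and 373 CPM with both drugs, 440.2 and 451 CPM with Nutlin, 258 and 251 CPM with 5-Ph-IAA and 269.8 and 242 CPM in vehicle. SLC3A2 rose with Nutlin without overlap, at 0.80 ± 0.09 log2 against vehicle (adjusted p = 0.00352, edgeR) and 0.60 ± 0.09 with both drugs against 5-Ph-IAA (adjusted p = 0.0255, edgeR), while SNHG1 did not pass. The outer end of TAF1D in GENCODE 29, at chr11:93784391, lies 164 bases from the start of MED17, a Mediator subunit. The RefSeq promoter printed above, at chr11:93741446-93741545, lies inside the GENCODE gene and far from that end. Levels of MED17 were 68.01 and 64.6 CPM in vehicle, 66.4 and 70.2 CPM at 3 h and 56.6 and 54.5 CPM at 12 h. MED17 had a log2 fold change of -0.25 ± 0.10 at 12 h and did not pass (adjusted p = 0.127, edgeR). ZNFX1, whose start lies 248 bases from that of ZFAS1, rose at 12 h by 0.32 ± 0.09 log2 (adjusted p = 0.0422, edgeR) and fell with Nutlin on average, at -0.39 ± 0.07 (adjusted p = 0.0349, edgeR). ZFAS1 passed in neither comparison. BARD1, 518 bases from SNHG31, fell at 12 h, at -0.49 ± 0.10 log2 (adjusted p = 0.01, edgeR), and SNHG31 did not pass at 0.29 to 1.67 TPM. ZBTB37, 800 bases from GAS5, was at 0.05 ± 0.12 log2 at 12 h (adjusted p = 0.868, edgeR). ACAA2, GLRX5, RPS2, TRAF7 and ZBTB37 passed in no comparison. Of 9 neighbours tested, 1 rose and 1 fell at 12 h, where 3.39% of all genes rose and 7.97% fell. Their median was 0.05 against -0.003 over all genes.

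Genes for proteins that act on snoRNAs or host transcripts, and other host genes, are given by list, beside 11.4% of all genes passing at 12 h in edgeR (3.39% raised and 7.97% lowered). Of 21 snoRNP and assembly proteins, 1 rose and 2 fell at 12 h, at a median log2 fold change of 0.03 against -0.003 over all genes. They were TCOF1 (0.45), a nucleolar factor of RNA polymerase I transcription, TGS1 (-0.43), which hypermethylates the cap of small RNAs, and RPAP3 (-0.49), an assembly cochaperone. Of 20 nonsense-mediated decay factors, 3 rose and 1 fell at 12 h, at a median of 0.17 against -0.003 over all genes, among them SMG9 at 0.50, SMG5 at 0.30 and MAGOHB at -0.46. Of 22 other non-ribosomal protein-coding hosts, NCL (0.52), CHD8 (0.57) and 1 other rose, and TOMM20 (-0.52) and IPO7 (-0.40) fell, at a median of 0.01. Of 25 ribosomal protein hosts, RPL7A (0.23) rose and RPSA (-0.24) and RPL3 (-0.20) fell, at a median of 0.01. None of these lists had a member that passed at 3 h or with Nutlin. The 6 stress genes listed with them were DDIT3, CHAC1, ATF3, TRIB3, ASNS and ATF4. This list was chosen with earlier results of these data known, so its rise is no independent result. All 6 rose with Nutlin in each arm, where 0.464% of all genes passed against vehicle and 0.388% with both drugs against 5-Ph-IAA. Their medians in these comparisons were 2.02 and 1.77, in that order. Their part in the host changes was not tested.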

How the data were processed

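Total RNA had been extracted with Trizol and made into libraries with a stranded, rRNA-depleting kit, per the labels' protocols. Reads were aligned and quantified with STAR 2.7.10b and RSEM on hg38 (GRCh38), per the submitters' processing notes, which also name DESeq2 1.48.1. The annotation release and the strand setting of the counting are not given in the sources used here. The 14 deposited gene tables, 1 per library, hold RSEM expected counts (estimated, not normalized) and TPM (scaled by the authors to 1000000 per library) for 78686 identifiers, with effective lengths. Library depth was 3.54 to 35.1 M expected counts (M, 1000000). A symbol was matched to 61463 identifiers and a GENCODE 29 position to 57288.

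Expected counts were rounded to whole numbers and tested with edgeR 4.0.16 in R 4.3.3 (TMM scaling, quasi-likelihood test) over all genes with enough reads (filterByExpr, minimum count 10, minimum total 15). Benjamini-Hochberg adjustment ran over all tested genes with a threshold of 0.05, and CPM carry TMM scaling. The time-course set was fitted with its 6 libraries (19049 genes, 3 residual degrees of freedom), the Nutlin set with its 8 (17251 genes, 4 degrees), and 1 joint fit held the vehicle and 5-Ph-IAA 3 h libraries of both sets. Comparisons that share vehicle or treated libraries are not independent. Scripts were tested on simulated data. Alternatives were DESeq2 1.42.0, RLE size factors, no filter on low counts, a replicate block, the compared groups alone, leaving out each library of the groups compared, and, added after seeing the data, limma 3.58.1 on log2(TPM + 0.5). TAF1D, SNHG26 and the other hosts given library by library either passed in a comparison, stood among the 6 highest by TPM, or had one of the 3 smallest p in a comparison. The rest are given by range, and SNHG1, SNHG3, SNHG5, SNHG7, SNHG16 and SNHG28 also by library, chosen after their values were seen. The host genes and the other lists were chosen with earlier results of these data known. Replicate numbers do not pair libraries in the labels, and the deviations of same-numbered libraries correlated at -0.0888 to 0.047.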

Additional observations from a re-analysis of the deposited data

How the results depend on the processing

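With 1 library of the compared groups left out, lowest to highest, 961 to 2446 genes and 2 to 5 hosts passed at 12 h (961 without replicate 1 at 12 h), and 23 to 283 genes at 3 h with a host median of -0.034 to 0.035. For 12 h against 3 h these were 612 to 1545 genes and 0 to 1 host. For Nutlin against vehicle they were 25 to 2131 genes, 0 to 11 hosts and a median of -0.163 to 0.012, and for both drugs against 5-Ph-IAA 16 to 28 genes. For both drugs against Nutlin they were 0 to 2490 genes, 0 to 7 hosts and a median of -0.150 to 0.055, and for the interaction 0 to 1035 genes, 0 to 2 hosts and -0.165 to 0.043. For the Nutlin average they were 84 to 1977 genes and 0 to 9 hosts, for the set difference 5 to 145 genes and -0.059 to 0.032, and for the common effect 0 to 2 genes. A left-out library leaves a lone one, assumed to vary like the other groups.

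DESeq2 called 54 genes at 3 h, and 158 genes and 2 hosts with Nutlin. At 12 h against 3 h it called 4 hosts, where 573 of 19049 genes rose and 1173 fell. In the Nutlin set it called 1 gene with 5-Ph-IAA, 103 with both drugs against 5-Ph-IAA and 24 against Nutlin. It called 1 gene in the interaction, 47 in the set difference and 5 in the common effect. Without the filter these were 193 genes at 3 h, 2448 genes and 5 hosts at 12 h against 3 h, 405 genes and 2 hosts with Nutlin, 53 with 5-Ph-IAA, 270 and 136 with both drugs against 5-Ph-IAA and against Nutlin, 57 in the interaction, 635 in the Nutlin average, 177 in the set difference and 110 in the common effect. With limma on TPM, 2 genes and 0 hosts passed at 12 h (median 0.030), 0 genes at 3 h, 1 gene and 0 hosts at 12 h against 3 h (median 0.11), 28 genes with Nutlin and 25 with both drugs against 5-Ph-IAA (median 0.0066). Against Nutlin the limma median was 0.11, in the Nutlin average 79 genes and 0 hosts passed (median -0.0033), and in the set difference 0 genes (median -0.086). The compared groups alone gave 1391 genes at 12 h, 27 with Nutlin and 9 with 5-Ph-IAA. At 12 h against 3 h they gave 4 hosts, where 597 of 17606 genes rose and 1247 fell. With both drugs against 5-Ph-IAA they gave 622 genes and 3 hosts (SNHG12, DANCR and SNHG4). The cause of these differences was not tested.

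The replicate block gave 45 genes at 3 h and 6 in the set difference, and moved no other count of genes or hosts by over 1.5 times. At 12 h it gave 2489 genes and 8 hosts. Same-numbered libraries share only a number. Among single hosts, outside the left-out libraries, 177 values kept their direction and side of the threshold, 11 passed newly, 15 no longer passed and 1 turned: SNHG8 in the interaction, to 0.0075 with limma on TPM. Depth limits SNHG14, SNHG18, SNHG27, SNHG28 and SNHG31, and replicate 2 at 12 h, with 3.54 M counts, limits every 12 h value.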
